A study of Mus musculus with 2 samples.

Results

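The 61 genes described here were the mouse protein-coding genes of the Tnf superfamily, the caspases, the Bcl2 genes and the inhibitor of apoptosis (Birc) genes. They were chosen by symbol alone, as Tnf and the symbols that begin with Tnfsf, Tnfrsf or Bcl2 or that join Casp or Birc to a number. RefSeq listed 63 such symbols on the GRCm38.p6 assembly (mm10), and 2 of them were not protein-coding, the pseudogene Casp16 and the antisense RNA Tnfsf13os. All 61 protein-coding genes had a value, out of 21225 protein-coding genes with one. The values came from 1 library of early S phase DNA and 1 of late S phase DNA from 46C mouse embryonic stem cells, strain 129P2/Ola, grown with leukemia inhibitory factor. The 46C line, a single line, is known for a fluorescent reporter at the neural gene Sox1. Both fractions came from cells given 50 µM bromodeoxyuridine (BrdU), a thymidine analogue that marks newly made DNA, for 2 h, and sorted by DNA content. No untreated or differentiated cells were compared. The authors joined both libraries in 1 score per genomic position, smoothed over 300 kb, and each gene took the score of the position nearest its midpoint. Scores above 0 were read as early and those below 0 as late, because the deposited table names early before late; if that order were reversed, every side given here would be exchanged. Its log base and zero point are not stated, so scores are not read as folds. With 1 library per fraction there was no replicate error and no test, and the read depth is unknown. The score measures the timing of DNA copying and not transcripts, so the labelled cell type could not be checked against marker expression.

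Ligands of the Tnf superfamily are mostly membrane proteins of immune cells, and they act through receptors on neighbouring cells. Some of these receptors carry a death domain and start cell death through initiator caspases, proteases that in turn cut and activate the executioner caspases. Bcl2 proteins guard or open the mitochondrial route to the same caspases, and inhibitor of apoptosis proteins restrain caspases or, as ubiquitin ligases, steer receptor signals. Replication timing, the order in which parts of the genome are copied in S phase, follows domains much longer than most genes.

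As a whole the 61 genes were distributed over early and late DNA much as other genes were. Above 0 lay 47 of the 61 members (77.0%), beside 73.5% of all protein-coding genes. Their median was 1.14 (quartiles 0.13 and 1.58), and that of all protein-coding genes was 1.02 (quartiles -0.082 and 1.52). Scores over 1.5 were found for 21 members (34.4%) and for 26.9% of all protein-coding genes. Scores under -1 were found for 6 members (9.84%) and for 9.59% of all. Of the 33 superfamily genes 26 lay above 0 (median 1.23), of the 13 Bcl2 genes 11 (median 0.91), of the 5 Birc genes all 5 (median 1.53), and of the 10 caspases 5. With the score set against the autosomal median of -0.30 in place of 0, 51 members lay above it, beside 78.5% of all protein-coding genes. No member lay on chromosome X or Y.

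**Figure D1:**
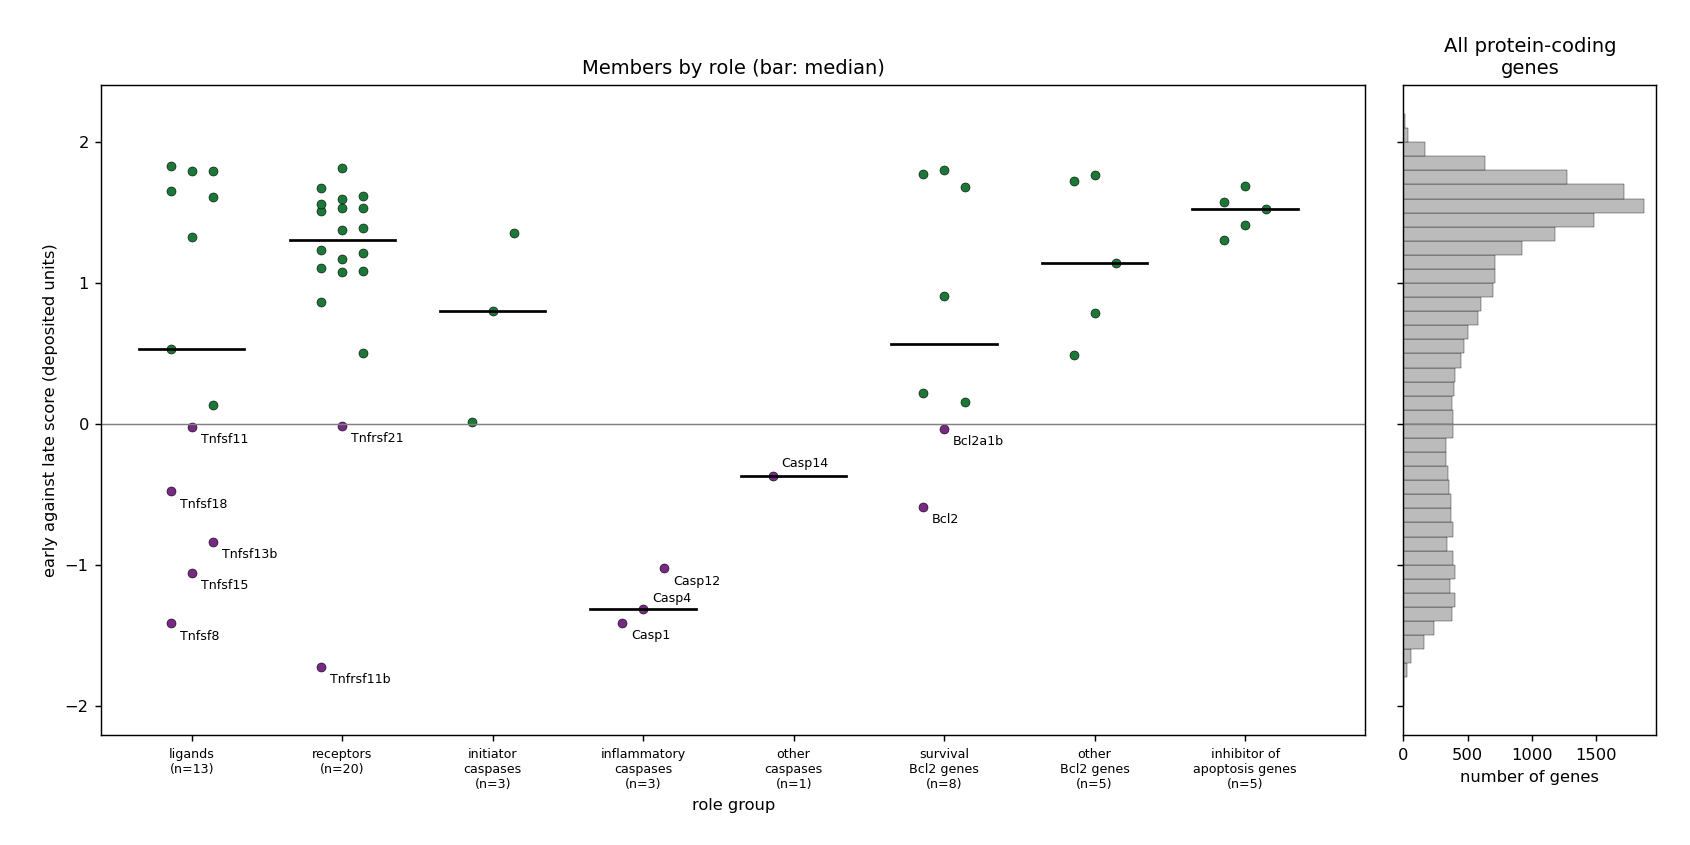
Early against late score (vertical axis, deposited units) of members by role on the left, in 8 of the 9 role groups, each point 1 gene and each bar the median of its group, with green above 0 and purple below. The histogram on the right gives the number of all 21225 protein-coding genes in bins of score. The 5 Birc genes lie between 1.30 and 1.69, while the 3 inflammatory caspase genes lie between -1.41 and -1.02.

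Promoter bases are shown for a late and an early member of the Bcl2 genes and of the caspases, and for Tnf, because they differ widely in CpG content on both sides of 0. Each line gives the 250 bases before the most upstream start in the RefSeq promoter table on GRCm38.p6, in the direction of the gene, with every CpG in capitals. For Bcl2l1 that start lies 2.08 kb inside the annotated gene, so its bases are not upstream of the whole gene. Bcl2 (chr1:106714291-106714540, minus strand) and Casp1 (chr9:5298267-5298516, plus strand) are the late ones. Bcl2l1 (chr2:152831729-152831978, minus strand), Casp9 (chr4:141793362-141793611, plus strand) and Tnf (chr17:35202008-35202257, minus strand) are the early ones.
Bcl2: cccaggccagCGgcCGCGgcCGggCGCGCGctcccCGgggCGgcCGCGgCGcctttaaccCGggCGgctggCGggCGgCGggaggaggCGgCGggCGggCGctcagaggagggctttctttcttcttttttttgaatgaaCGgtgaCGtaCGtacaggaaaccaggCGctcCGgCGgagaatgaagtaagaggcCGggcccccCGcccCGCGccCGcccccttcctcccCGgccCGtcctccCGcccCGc
Bcl2l1: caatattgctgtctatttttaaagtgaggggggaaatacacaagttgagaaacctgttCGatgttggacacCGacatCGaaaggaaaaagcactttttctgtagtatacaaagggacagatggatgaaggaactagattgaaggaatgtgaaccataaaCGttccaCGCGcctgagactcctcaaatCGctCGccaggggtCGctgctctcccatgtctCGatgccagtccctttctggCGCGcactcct
Casp1: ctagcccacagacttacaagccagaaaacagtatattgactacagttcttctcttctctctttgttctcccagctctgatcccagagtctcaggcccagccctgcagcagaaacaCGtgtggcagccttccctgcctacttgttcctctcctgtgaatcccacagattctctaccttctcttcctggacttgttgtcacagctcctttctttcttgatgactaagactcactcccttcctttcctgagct
Casp9: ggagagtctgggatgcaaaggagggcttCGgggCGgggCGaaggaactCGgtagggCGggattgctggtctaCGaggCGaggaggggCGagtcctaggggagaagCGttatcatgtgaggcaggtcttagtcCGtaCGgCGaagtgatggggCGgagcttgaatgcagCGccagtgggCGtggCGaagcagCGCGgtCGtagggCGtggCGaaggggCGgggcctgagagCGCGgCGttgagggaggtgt
Tnf: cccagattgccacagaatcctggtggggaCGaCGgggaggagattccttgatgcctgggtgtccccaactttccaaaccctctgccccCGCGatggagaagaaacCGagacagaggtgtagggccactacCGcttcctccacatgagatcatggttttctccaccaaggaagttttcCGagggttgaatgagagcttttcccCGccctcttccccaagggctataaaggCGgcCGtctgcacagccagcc
The bases before Bcl2 held 36 CpG and those before Casp9 25, against 12 for Bcl2l1, 10 for Tnf and 1 for Casp1. The most CpG-dense stretch of these 5, picked for their spread in CpG, stood before a late gene, and the sparsest too. Among the other members the early gene Bcl2l15, at 1.14, had 0 CpG in the 250 bases before and 50 after its start.

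Promoters of the members held fewer CpG in the median than those of genes at large, with 8 against 14, a difference that was not tested. A promoter window, 250 bases before and 50 after the start, was listed for 51 of the 61 members. At least 15 CpG were found in 15 of these 51 windows (29.4%), and in 48.5% of the 17030 windows of all protein-coding genes. Among early genes the share was 13 of 39 for members (33.3%) and 57.6% for all protein-coding genes. Among late genes it was 2 of 12 for members (16.7%) and 23.5% for all. The 2 members below 0 were Bcl2, with 44 CpG the highest of all 51, and Tnfrsf21 with 17, whose score of -0.015 is 0.048 at its start, so the second could equally be counted as early. The median was 9 CpG in early members and 6 in late members, beside 17 and 3 in early and late genes at large. The motif TATAAA, searched on the gene's strand in the 50 bases before the start, was found for 2 of the 51, Tnf and Tnfsf18. Of all promoters 3.59% held it. In the Tnf line above it stands near the right end.

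Ligand genes were spread over the whole range of scores. Of 13 ligand genes 8 lay above 0 (61.5%), beside 73.5% of all protein-coding genes, with a median of 0.53. The median was 0.25 with members within 1 Mb as 8 units, 0.27 at the start sites of the 10 with a promoter, 0.33 without Tnfsfm13 and 0.84 against the autosomal median. The highest were Tnfsf13 at 1.83, which encodes the B cell factor APRIL, and Tnfsf12 at 1.80, which encodes TWEAK. They are neighbours on chromosome 11 (69682577 to 69696098) and share their locus with the read-through gene Tnfsfm13, also at 1.80, so these 3 genes give 1 measurement. Tnf itself, the founding cytokine of the superfamily, had 1.65 on chromosome 17 (35199367 to 35202007), higher than 86.2% of protein-coding genes. It sits between Ltb (1.64) and Lta (1.65), ligand genes of lymphoid organ formation, in an early run of 8.97 Mb. On the same chromosome Tnfsf9, a T cell costimulator, had 1.61, and Tnfsf14, which encodes LIGHT, had 1.33 at a distance of 85.3 kb. The death ligand gene Tnfsf10, which encodes TRAIL, had 0.53, and the T cell costimulator gene Tnfsf4 had 0.13.

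The 5 ligand genes below 0 ranged from -1.42 to -0.023. Tnfsf8, a ligand of activated T cells, was the latest of them at -1.42 (chromosome 4, 63831202 to 63861508), with 2.01% of protein-coding genes lower. Tnfsf15, which encodes a ligand made by endothelium, lay 112 kb from it at -1.06, and 8.50% of protein-coding genes were lower. Both sit at the edge of a late run of 10.5 Mb that holds 28 protein-coding genes, and the nearest change of sign was 123 kb from Tnfsf15. Tnfsf13b, which encodes the B cell survival factor BAFF, had -0.84 on chromosome 8, in a late run of 2.54 Mb with 6 protein-coding genes. Tnfsf18, a ligand of T cells, had -0.48, and Tnfsf11, which encodes RANK ligand of osteoclast formation, lay next to the boundary at -0.023. Against the autosomal median Tnfsf11 had 0.28, so its side is not settled.

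Receptor genes were mostly early. Of 20 receptor genes 18 lay above 0 (90.0%), beside 73.5% of all protein-coding genes, with a median of 1.30 and quartiles of 1.08 and 1.54. With members within 1 Mb as units, 14 of 16 lay above 0. At either gene end, over 150 kb and against the autosomal median 19 of 20 did, since Tnfrsf21 lay next to 0. The difference from genes at large was not tested. The highest was Tnfrsf25, a death domain receptor of T cells, at 1.82. Tnfrsf13c at 1.68, the BAFF receptor gene, lay 4.20 Mb inside an early run of 10.9 Mb, the farthest of all members from a change of sign. Tnfrsf1a, the main Tnf receptor gene, had 1.62, Tnfrsf17 1.60 and Tnfrsf12a, the TWEAK receptor gene, 1.56. On the distal part of chromosome 4, between 145212368 and 156028894, stood 7 receptor genes, from Tnfrsf8 at 0.86 over Tnfrsf1b (1.11), Tnfrsf9 (1.21), Tnfrsf14 (1.51), Tnfrsf18 (1.53) and Tnfrsf4 (1.53) to Tnfrsf25. Of these, Tnfrsf4 and Tnfrsf18 lay 12.5 kb apart and do not give separate values. The decoy TRAIL receptor genes Tnfrsf22 (1.17) and Tnfrsf23 (1.08) and their neighbour Tnfrsf26 (1.23) form a cluster of 78.8 kb on chromosome 7. The death receptor gene Tnfrsf10b had 1.08, Tnfrsf13b 1.39 and Tnfrsf19 1.38. Tnfrsf11a, the gene of RANK, was the lowest of the early receptors at 0.51.

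The receptor genes below 0 differed in depth. Tnfrsf11b, which encodes osteoprotegerin, a soluble decoy for RANK ligand, was the latest of all 61 members at -1.73 (chromosome 15, 54250619 to 54278484), and only 0.0895% of protein-coding genes were lower. Over 46 positions within 150 kb of its midpoint, which are joined by the 300 kb smoothing, the score stayed between -1.75 and -1.41. Its late run was short, at 1.41 Mb with 5 protein-coding genes and a run median of -0.86, so the gene sits at the low point of a narrow valley. The neighbouring genes were Samd12 and Colec10. Tnfrsf21, a death domain receptor gene of neurons, had -0.015 at its midpoint and 0.048 and 0.0011 at its lower and higher ends, so no side can be given to it.

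Setting member ligands beside receptors they are known to bind gave 20 pairs of genes, many of which share a gene. Both genes lay above 0 in 11 pairs, the ligand alone lay below 0 in 7, the receptor alone in 1, and both lay below 0 in 1. Of all protein-coding genes 73.5% lay above 0, and no share for other pairs of genes was computed. The 7 pairs came from the 5 ligand genes below 0, of which Tnfsf13b gave 3. The receptor alone below 0 was Tnfrsf11b, which also binds TRAIL (Tnfsf10 at 0.53). Outside the members the Fas pair ran the same way, with Fasl at 0.14 and Fas at -0.98. The largest gap was between Tnfsf15 at -1.06 and its receptor gene Tnfrsf25 at 1.82. BAFF at -0.84 stood against all 3 of its receptor genes, Tnfrsf13c at 1.68, Tnfrsf17 at 1.60 and Tnfrsf13b at 1.39. APRIL, which shares the receptors Tnfrsf17 and Tnfrsf13b with BAFF, was early. Tnfsf8 at -1.42 stood against Tnfrsf8 at 0.86, and Tnfsf18 at -0.48 against Tnfrsf18 at 1.53. The bone system spanned the range, with RANK ligand at -0.023, RANK at 0.51 and osteoprotegerin at -1.73. Against the autosomal median RANK ligand had 0.28, so both of its pairs would change class. In 12 of the 20 pairs the ligand had the lower score, so the direction was mixed, with ligands higher in the pairs of Tnf, Tnfsf9, Tnfsf12 and Tnfsf13 and in both pairs of Tnfrsf11b.

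**Figure D2:**
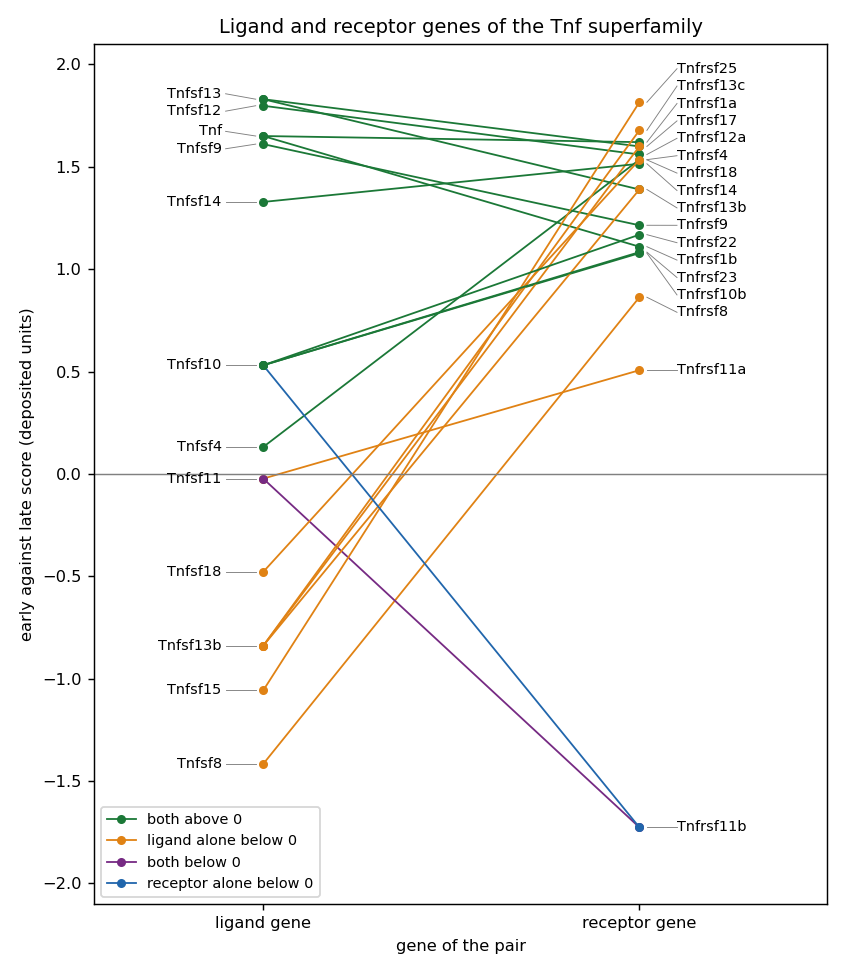
Early against late score (vertical axis, deposited units) of 20 ligand and receptor pairs, with each line joining a ligand gene on the left to a receptor gene on the right. Green lines have both genes above 0 (11 pairs), orange lines the ligand alone below 0 (7 pairs), the blue line the receptor alone below 0 and the purple line both below 0, the last 2 meeting at Tnfrsf11b at -1.73.

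The latest caspase genes were those of 1 locus. The inflammatory caspases, which process interleukins and drive pyroptosis, form a cluster of 74.5 kb on chromosome 9 (5298517 to 5373034) and were all late. Casp1 had -1.41, Casp4 -1.31 and Casp12 -1.02, and 2.08%, 3.81% and 9.15% of protein-coding genes had lower scores. With 300 kb of smoothing these 3 genes amount to 1 measurement on a slope. Within 500 kb of each midpoint, the only other protein-coding genes were the other 2 of the cluster, where protein-coding genes at large had a median of 15 such neighbours. Among the initiator caspase genes Casp9 of the mitochondrial route had 1.36 and Casp8 of the death receptors 0.80, while Casp2 lay next to 0 at 0.012. Casp8 lay beside Cflar (0.84), which encodes its inhibitory relative. Casp6, an executioner caspase gene, had 0.47. Casp14, an epidermal caspase gene, had -0.37 in a late run of 0.621 Mb.

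The value of Casp2 does not settle a side, since it turned to -0.0088 at the lower end of the gene. Of the 61 members, 18 (29.5%) had midpoints within 300 kb of a change of sign, beside 34.7% of all protein-coding genes. Among caspases of this kind were Casp2 at 6.66 kb, Casp14 at 36.0 kb and Casp6 at 191 kb.

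Bcl2 genes ran from moderately late to very early. Bcl2, the survival gene first found at a translocation of human lymphoma, had -0.59 (chromosome 1, 106538176 to 106714290), with 16.7% of protein-coding genes lower. Over the 27 positions inside this gene of 176 kb the score ranged from -0.72 to -0.55. The gene is shorter than the 300 kb of smoothing, so these positions are not separate measurements and cannot show uniform timing along it. Among its relatives in cell survival Bcl2l1, the gene of Bcl-xL, had 1.69 and Bcl2l2 1.78, and Bcl2l10, placed in the same group, had 1.80. That group of 8, which includes Bcl2 and the Bcl2a1 copies described below, had a median of 0.57. Above 0 lay 6 of the 8, beside 73.5% of all protein-coding genes. Bcl2l11, which encodes the death activator Bim, had 0.49 and lay 1.76 Mb from the nearest change of sign, in an early run with a low median of 0.90. Bcl2l12 had 1.77, the mitochondrial receptor gene Bcl2l13 1.73, Bcl2l15 1.14 and Bcl2l14 0.78.

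The Bcl2a1 copies are survival genes of blood cells and close copies of each other. Those at 1 place had values close to 0, and the only copy at another place was early. On chromosome 9 Bcl2a1d (0.15), Bcl2a1a (0.22) and Bcl2a1b (-0.034) span 485 kb, and Bcl2a1c lies 25.1 Mb from them at 0.91. Few positions were measured at this place. Within 150 kb of the midpoint there were 9 positions for Bcl2a1d, 9 for Bcl2a1a and 23 for Bcl2a1b, beside a median of 50 over the members. The nearest position to Bcl2a1d was 9.57 kb away, the largest distance of any member. The treatment of reads that match several copies equally well is not given in the sources used here, and these values are uncertain.

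All 5 inhibitor of apoptosis genes were early, beside 73.5% of all protein-coding genes, and they formed 4 units. Birc5, which encodes survivin, which serves in mitosis, had 1.69, 3.53 Mb inside an early run of 7.64 Mb. Birc2 (1.58) and Birc3 (1.53), ubiquitin ligases of Tnf receptor signalling, lie 32.7 kb apart on chromosome 9. Birc7 had 1.41 and Birc6, a giant ubiquitin-conjugating enzyme gene of 175 kb, 1.30 at its midpoint. Along Birc6 the score ran from 1.20 to 1.48, the widest range within any member. Birc2 lay 2.47 Mb from Casp12 on the same chromosome, and their scores differed by 2.60.

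Members that neighbour each other mostly shared a side, but only where they lay closer than the smoothing width. With midpoints within 1 Mb counted together, the 61 genes formed 46 units, of which 11 held several members. All of these 11 but Tnfrsf11a with Bcl2 and the Bcl2a1 copies were narrower than the 300 kb of smoothing. Their members therefore do not give separate values. Of all protein-coding genes 73.5% lay above 0, and no share for other neighbouring genes was computed. In 8 of the 11 all members lay on one side, and all 8 were narrower than the smoothing, which joins such values. Both wider units, Tnfrsf11a with Bcl2 and the Bcl2a1 copies, held members on both sides of 0. The first exception was Tnfrsf11a at 0.51 and Bcl2 at -0.59, 811 kb apart on chromosome 1. Tnfrsf11a sits in a small early run of 0.327 Mb with 2 protein-coding genes, and Bcl2 in a late run of 12.0 Mb. The second was Tnfsf4 at 0.13 and Tnfsf18 at -0.48, 93.2 kb apart and also on chromosome 1. Tnfsf18 was the only protein-coding gene in a late run of 0.317 Mb, close to the smoothing width, and beyond it Fasl, the Fas ligand gene, had 0.14. The third was the group of Bcl2a1 copies described above.

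**Figure D3:**
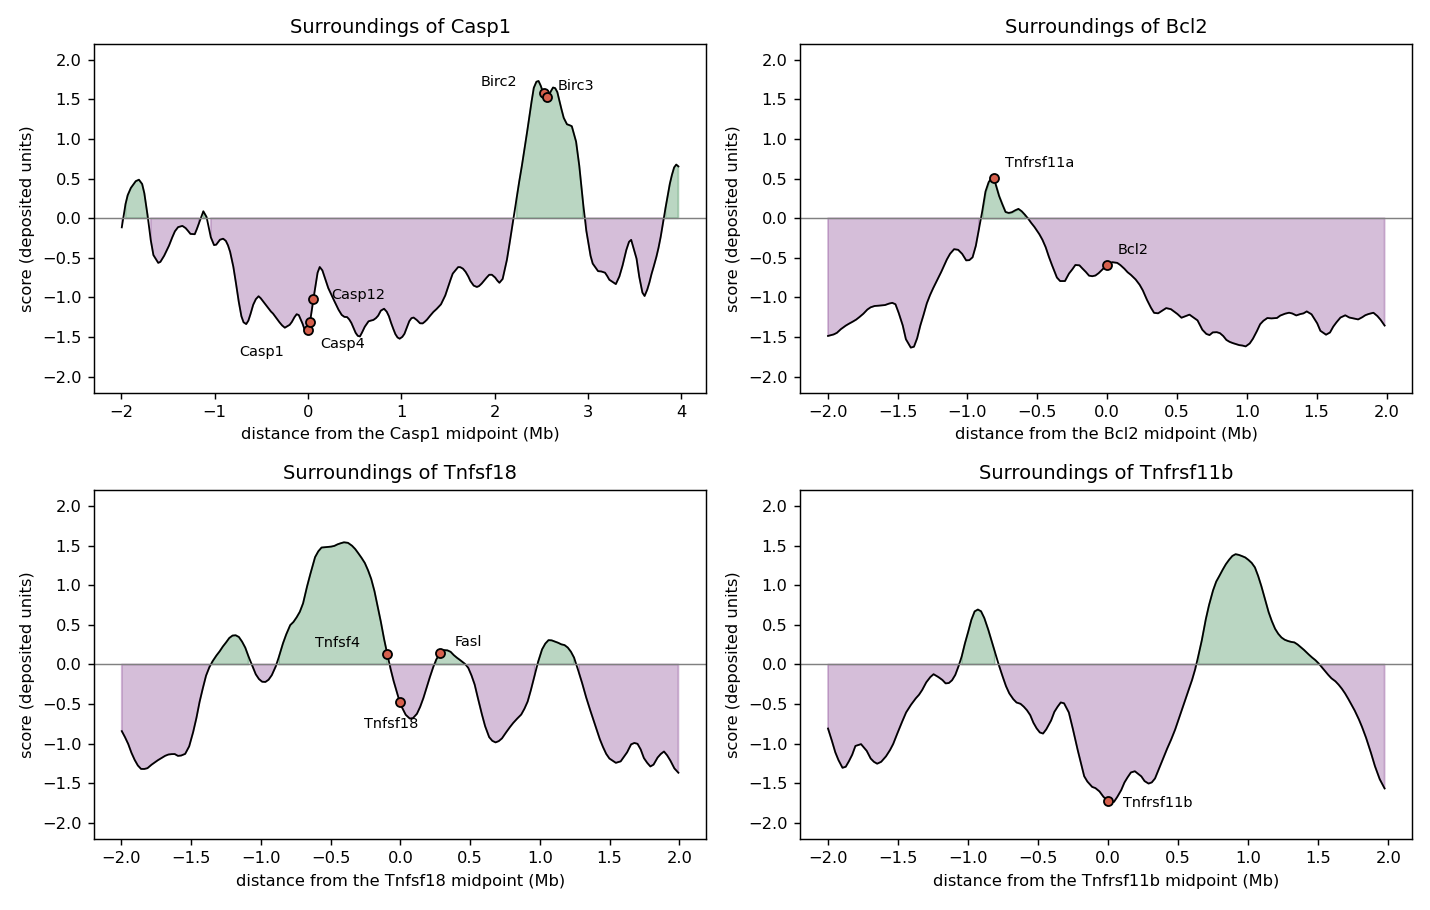
Early against late score (vertical axes, deposited units) along the surroundings of Casp1, Bcl2, Tnfsf18 and Tnfrsf11b, with the horizontal axes giving the distance from each gene's midpoint in Mb. Red points are gene midpoints. The caspase cluster lies on a slope within a late run with the Birc genes on a separate early peak, Tnfrsf11a on a small early peak beside late Bcl2, Tnfsf18 in a small dip between Tnfsf4 and Fasl, and Tnfrsf11b at the floor of a narrow valley.

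The surroundings and lengths of early and late members were set beside those of genes at large. The median number of protein-coding genes within 500 kb was 15 for the 47 early members and 8 for the 14 late members, beside 17 and 9 for all early and late genes. The lowest count was 2, at the inflammatory caspases, and the highest 63, at Tnf. Early members were the shorter ones, with a median length of 14.9 kb against 27.7 kb in late members. Genes at large ran the other way, with 18.2 kb for early and 14.7 kb for late ones. The midpoints of early members lay a median of 556 kb from a change of sign and those of late members 179 kb, beside 556 kb for early and 359 kb for late genes at large. Within 300 kb of one stood 10 of the 47 early members (21.3%) and 8 of the 14 late members (57.1%), beside 30.9% of early and 45.3% of late genes at large. None of these differences was tested.

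**Figure D4:**
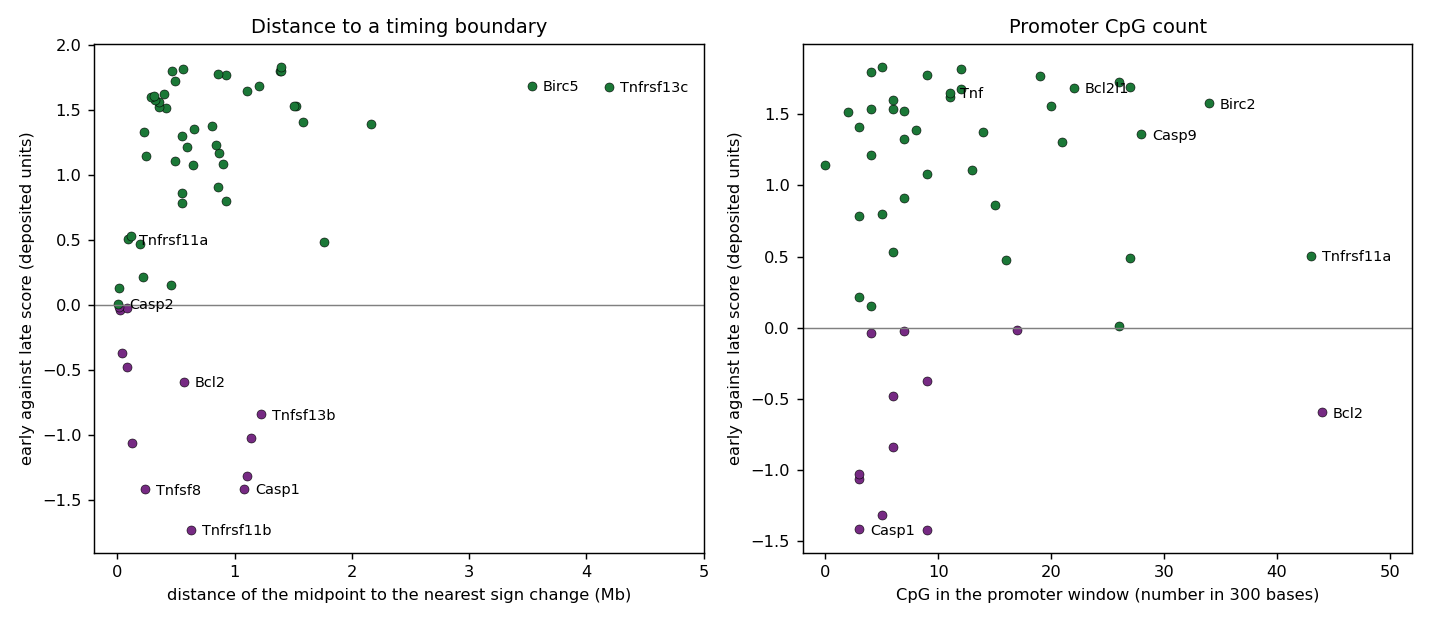
Early against late score (vertical axes, deposited units) of 59 of the 61 members against the distance of the midpoint to the nearest sign change in Mb (left) and of the 51 members with a promoter window against its number of CpG (right). Each point is 1 gene. Bcl2 has 44 CpG at a score of -0.59, and Tnfrsf13c lies 4.20 Mb from a sign change.

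Genes of the same pathways under other symbols were mostly early. Of 47 such genes 40 lay above 0 (85.1%), with a median of 1.45, beside 77.0% of the members and 73.5% of all protein-coding genes, and the difference was not tested. Several lie within the smoothing width of members, as do Lta and Ltb beside Tnf, Cd70 between Tnfsf9 and Tnfsf14, and Bid beside Bcl2l13. So do Ltbr and Cd27 near Tnfrsf1a, Cflar beside Casp8, Trp53 near Tnfsf13 and Fasl near Tnfsf18. The scores of all these genes are not separate from those of the members, and the pathway genes were not counted as units. All 11 adaptor genes of the receptors were early (median 1.29), from Traf5 at 0.31 to Traf3 at 1.74, as were all 11 genes of the Bcl2 family, from Pmaip1 at 0.35 to Bik at 1.77. The pore-forming Bax had 1.70 and the survival gene Mcl1 1.44. Of the 14 superfamily genes 10 were early, with Cd27 the highest at 1.76. The 4 late ones were the death receptor gene Fas at -0.98 and 3 genes of chromosome X. These were Eda (-0.67) of skin appendages, Cd40lg (-0.57) of T cells and Eda2r (-0.62). Among 7 genes of inhibitors of apoptosis and their antagonists, Naip6 (-0.20), Naip5 (-0.17) and Naip2 (-0.095) were slightly late and Diablo the highest at 1.65. Naip1, of the same cluster, was early at 0.89, so the cluster was not late as a whole. The Naip genes are close copies of each other in 1 cluster, so their values share the uncertainty of the Bcl2a1 copies. The 4 genes of the apoptosome and caspase activation were early, from Cycs (0.32) to Trp53 (1.95).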

How the data were processed

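Cells were labelled with BrdU, sorted into early and late S phase, and BrdU-labelled DNA of 10000 cells was sonicated, precipitated, amplified and sequenced, per the labels' protocols. Reads were aligned to mm10 with Bowtie2, per the submitters' processing notes. Per the file headers, the authors deposited 1 score per position for both libraries together, smoothed over 300 kb. Counting, scaling and depth are not stated. Smoothing joins genes closer than its width, and unevenness from whole-genome amplification could not be measured with 1 library per fraction. Of 384798 positions (median spacing 5778 bp) 384794 had a value.

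Genes came from a RefSeq table of GRCm38.p6, without 348 entries on scaffolds. A gene took the nearest position to its midpoint within 100 kb (median distance for members 0.808 kb). A run was a stretch of consecutive positions with the same sign, broken where neighbours lay over 300 kb apart. Promoter sequences are RefSeq's, with the most upstream start per gene. The nearest-position and run routines were tested on simulated data. Python 3.11.15, numpy 2.4.6 and pandas 2.3.3 were used. Values of some members are left out of the text, but these genes enter the counts of their families. Any other member could be named; the late ones, the extremes of each role and those near a boundary or another member were. Members, roles, lists and alternatives were chosen with earlier results of these data known. Ligand and receptor pairs, promoter features and distances between genes were added after the data were seen. A planned comparison of protein identity was not made, since no protein sequences were used here.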

Additional observations from a re-analysis of the deposited data

How the results depend on the processing

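No paired analysis was possible because there was 1 library per fraction and both were joined in 1 score. The alternatives were a zero point moved to the median of autosomal positions, both gene ends, the median within 150 kb, a limit of 10 kb, autosomes only and units of 1 Mb, with the transcription start and a set without the Bcl2a1 copies and Tnfsfm13 added after seeing the data. Of 182 recomputed counts and medians 171 kept within the spread over genes or within 1.5 times and none changed sign. With the moved zero point, all scores rose by construction, and the medians became 1.45 for the members, 1.61 for receptors, 1.83 for inhibitor of apoptosis genes, 1.75 for pathway genes under other symbols, -1.01 for inflammatory caspases and -0.067 for Casp14, the only other caspase. Casp14 had -0.33 at its lower end and -0.35 over 150 kb. Ligand genes above 0 numbered 8 of 13 in the main setting, 5 of 10 at transcription starts and 4 of 8 as units. Their share thus fell along with their number. The ligand genes without a listed promoter, Tnfsf4, Tnfsf9 and Tnfsf12, all lay above 0. Survival Bcl2 genes above 0 numbered 6 of 8 and, without the copies, 3 of 4, which is the same share. Of 405 recomputed scores of single members 10 changed sign. With the moved zero point Bcl2a1b became 0.27, Tnfsf11 0.28 and Tnfrsf21 0.29. Tnfrsf21 was 0.048 at its lower end and at its start, 0.0011 at its higher end and 0.13 over 150 kb. Casp2 was -0.0088 at its lower end and at its start and -0.055 over 150 kb. Depth is unknown, and without replicates no score has an error.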
